A study of Mus musculus with 40 samples.

Results

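The liver takes up fatty acids from the blood and couples them to coenzyme A before they are oxidised or stored. To describe where the corepressor complex sat around the genes for these steps, peaks of NCoR, SMRT and HDAC3 were examined at 10 genes, Cd36, Vldlr, Lpl, Fabp1, Slc27a1, Slc27a2, Slc27a4, Slc27a5, Acsl1 and Acsl5, out of 21938 protein-coding genes. The genes were chosen by name for their role in fatty acid uptake and activation, with earlier results of these data known. A peak was considered when its centre lay inside one of the genes or within 50 kb of it, and it was assigned to the gene of the nearest transcription start site (TSS) of a protein-coding gene. Of 35138 NCoR peaks in the genome, 67 lay in these windows and 45 were assigned to the 10 genes. The corresponding numbers were 29 and 21 of 10654 SMRT peaks, and 35 and 26 of 14462 HDAC3 peaks.

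Chromatin immunoprecipitation with sequencing (ChIP-seq) was performed in the study on mouse liver, in 40 samples that form 18 groups. The 3 peak lists used here came from ad libitum fed male Bcl6 fl/fl mice on a C57BL/6 background, in which the Bcl6 gene carried loxP sites and was not deleted. Each list pooled 3 libraries and gave a position for every peak, without a height, a score or a value per library. The sequencing depth is therefore unknown, no error between animals can be given, and every comparison below is a description without a test. Whole liver was used, so hepatocytes and other liver cells cannot be told apart.

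NCoR and SMRT are related corepressors that are brought to DNA by nuclear receptors and by factors such as BCL6, and HDAC3 is the histone deacetylase that works in a complex with them. The membrane glycoprotein CD36, the lipoprotein receptor VLDLR and lipoprotein lipase bring fatty acids or lipoproteins to cells, FABP1 binds fatty acids inside hepatocytes, and the Slc27 transport proteins and the long-chain acyl-CoA synthetases of the Acsl family move or activate them. Several of these genes are known targets of the fatty acid receptor PPARα. An NCoR peak with both a SMRT and an HDAC3 peak centre within 200 bp is called a shared site, and one with neither is called NCoR-only.

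The sequences under the peaks were read from the GRCm38 reference (the assembly that mm10 names), on the plus strand. For each gene with a shared site, the 200 bp around the NCoR centre of the site nearest to a TSS were searched for 8 short motifs, and the windows with a match are shown in this order: an intronic site of Cd36, a site upstream of Lpl, a site at an internal promoter of Acsl1 and a site upstream of Acsl5. The window at the Fabp1 promoter had no match to the fixed motif strings, which miss looser forms of a motif. It is shown because it was the shared site closest to a TSS. Windows that reached a transcribed exon were cut before it, which shortened those of Fabp1, Acsl1 and Acsl5 to 110, 80 and 189 bases. Capitals mark the matches, on either strand: C/EBP and then ERR in Cd36, FOX in Lpl, HNF6/CUX2 in Acsl1 and a pair of C/EBP matches in Acsl5.
Cd36 (chr5:17876769-17876968): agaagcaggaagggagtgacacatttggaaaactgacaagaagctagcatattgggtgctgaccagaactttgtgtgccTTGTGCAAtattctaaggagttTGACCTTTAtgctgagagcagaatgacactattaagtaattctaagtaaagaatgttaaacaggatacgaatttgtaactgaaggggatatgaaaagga
Lpl (chr8:68846141-68846340): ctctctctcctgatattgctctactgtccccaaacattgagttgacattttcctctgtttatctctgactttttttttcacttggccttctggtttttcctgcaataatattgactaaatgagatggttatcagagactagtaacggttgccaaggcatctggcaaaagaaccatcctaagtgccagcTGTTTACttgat
Fabp1 (chr6:71199717-71199826): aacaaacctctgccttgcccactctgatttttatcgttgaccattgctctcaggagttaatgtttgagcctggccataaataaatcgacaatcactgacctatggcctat
Acsl1 (chr8:46490886-46490965): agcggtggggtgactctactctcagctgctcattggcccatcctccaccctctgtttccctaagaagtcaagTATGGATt
Acsl5 (chr19:55251749-55251937): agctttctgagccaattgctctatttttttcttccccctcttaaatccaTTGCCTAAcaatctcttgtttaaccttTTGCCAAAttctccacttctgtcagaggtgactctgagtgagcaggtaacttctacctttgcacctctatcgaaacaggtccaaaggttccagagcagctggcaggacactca

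A further pair of windows is shown, chosen after their values were seen, because they were the assigned sites with a match to the DR1 element, the sequence to which PPARα binds with its partner RXR. Neither was a shared site. In the Cd36 window, from an NCoR and HDAC3 site without SMRT, the capitals mark a BCL6/STAT match, the DR1 match and a C/EBP match in that order. In the Acsl5 window, from an NCoR-only site, they mark the DR1 match.
Cd36 (chr5:17863200-17863399): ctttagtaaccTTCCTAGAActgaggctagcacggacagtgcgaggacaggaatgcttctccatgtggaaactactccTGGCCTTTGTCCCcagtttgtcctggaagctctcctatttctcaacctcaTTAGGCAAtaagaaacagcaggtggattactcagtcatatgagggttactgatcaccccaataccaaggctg
Acsl5 (chr19:55260472-55260671): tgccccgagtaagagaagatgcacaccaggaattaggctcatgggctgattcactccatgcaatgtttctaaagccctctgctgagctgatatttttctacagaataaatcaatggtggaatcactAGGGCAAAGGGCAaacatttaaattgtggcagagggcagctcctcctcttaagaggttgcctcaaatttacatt

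NCoR peaks were found at 9 of the 10 genes and shared sites at 7. Across the genome, 46.5% of protein-coding genes had at least 1 NCoR peak assigned within 50 kb and 18.8% had at least 1 shared site. Of the 45 NCoR peaks, 16 were shared sites (35.6%, exact 95% binomial interval 21.9 to 51.2), compared with 24.9% of all NCoR peaks. A further 9 carried HDAC3 without SMRT (20%, 9.58 to 34.6, against 14.8% of all), 1 carried SMRT without HDAC3 (2.22%, 0.0562 to 11.8, against 4.16%), and 19 were NCoR-only (42.2%, 27.7 to 57.8, against 56.1%). The intervals cover counting error only and treat peaks as independent, which neighbouring peaks are not. HDAC3 thus accompanied 25 of the 45 peaks (55.6%, 40 to 70.4, against 39.7% of all). SMRT accompanied 17 (37.8%, 23.8 to 53.5, against 29% of all). Among all 67 NCoR peaks in the windows, whatever gene was nearest, 5 carried SMRT without HDAC3 (7.46%), above the share of all NCoR peaks. Shared sites were 29.9% of these 67, NCoR and HDAC3 sites 20.9% and NCoR-only sites 41.8%.

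The peaks were then grouped by the role of the gene. The receptors and the lipase (Cd36, Vldlr and Lpl) held 11 NCoR peaks, of which 5 were shared (45.5%, 16.7 to 76.6). Fabp1 held 5, of which 4 were shared (80%, 28.4 to 99.5). The 4 Slc27 genes together held 12, of which 1 was shared and 8 were NCoR-only (8.33% shared, 0.211 to 38.5). The synthetases Acsl1 and Acsl5 held 17, of which 6 were shared (35.3%, 14.2 to 61.7). With so few peaks per role the intervals are wide, and the differences were not tested.

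**Figure D1:**
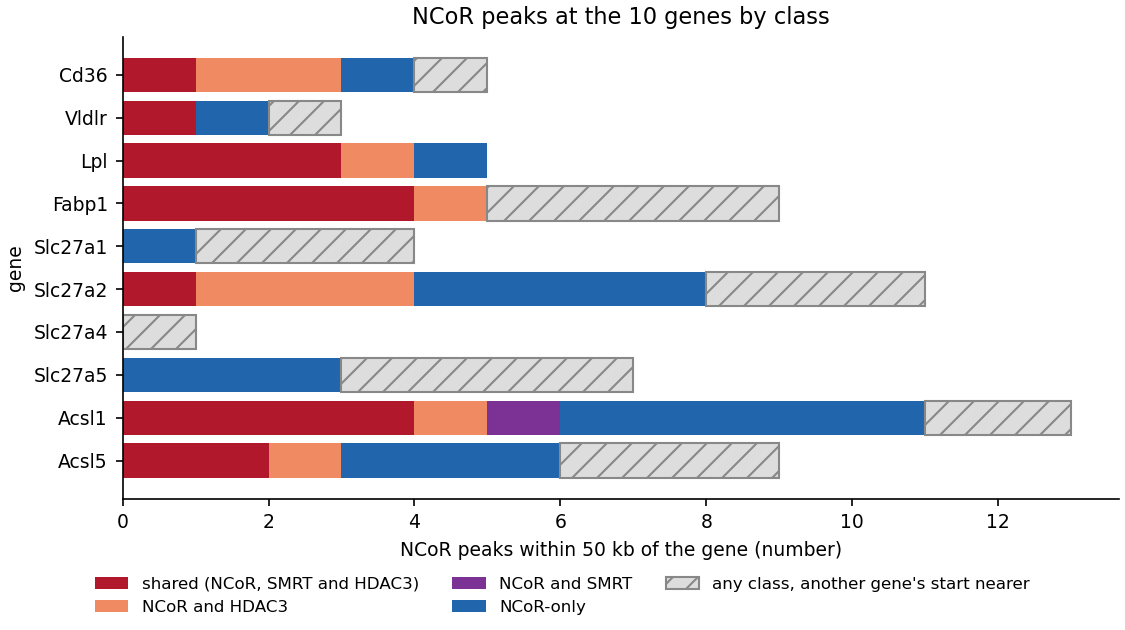
Number of NCoR peaks within 50 kb of each of the 10 genes, as horizontal bars divided by class, with hatched parts for peaks that lay nearer to the TSS of another gene. Acsl1 had the longest bar of assigned peaks (11), Fabp1 had 4 shared sites among 5, and Slc27a4 had no assigned peak.

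Cd36 encodes a membrane glycoprotein that takes up long-chain fatty acids. The gene (ENSMUSG00000002944.15) occupies chr5:17781690-17888801 (minus strand) and has 5 annotated TSSs. It was assigned 4 NCoR peaks. The shared site, at 17876754 to 17876982, lay in an intron at +11879 bp from the most upstream TSS, and the SMRT and HDAC3 centres were 7 and 11 bp away from that of NCoR. The study also measured binding at Cd36 by PCR, in an assay it describes for BCL6, PPARα and the related receptor PPARδ. The assay is not described for NCoR, SMRT or HDAC3. The primers of that assay were placed on the sequence around the gene, matched once each and enclosed 116 bp, from 17876880 to 17876995. This region overlapped the shared peak by 103 bp, and the centres were 69 bp apart. The pair of NCoR and HDAC3 sites without SMRT lay in an intron at 17863185 to 17863413, at -13507 bp from the nearest TSS, and between genes at -35647 bp. The intronic one holds the DR1 and BCL6/STAT matches printed above. The NCoR-only site lay in an intron at +10755 bp from a TSS near the middle of the gene. A SMRT peak with neither partner was present at -33043 bp, and the nearest NCoR centre was 2604 bp from it.

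Vldlr encodes the receptor for very low density lipoprotein, which is rich in triglyceride. The gene (ENSMUSG00000024924.14) occupies chr19:27216484-27254231 (plus strand). It was assigned 2 NCoR peaks, a shared site in an intron at +18705 bp (27235948 to 27236176) and an NCoR-only site at -40233 bp, within an intron of the non-coding gene AC118724.1. No motif searched was present in the window of the shared site.

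Lpl encodes lipoprotein lipase, which releases fatty acids from circulating triglyceride and is normally low in adult hepatocytes. The gene (ENSMUSG00000015568.16) occupies chr8:68880491-68907448 (plus strand). All of its 5 NCoR peaks lay outside the gene and none at its promoter. Upstream, shared sites were found at 68844214 to 68844442 (-36163 bp, with an HNF4 match) and at 68846126 to 68846354 (-34251 bp, with a FOX match). Downstream, an NCoR-only site lay at +34200 bp and held a BCL6/STAT match, an NCoR and HDAC3 site lay at +46285 bp, and the third shared site lay at 68954084 to 68954312 (+73707 bp). At least 3 shared sites were assigned to 3.26% of protein-coding genes. Counting within 10 kb of the gene left Lpl with 0 shared sites.

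**Figure D2:**
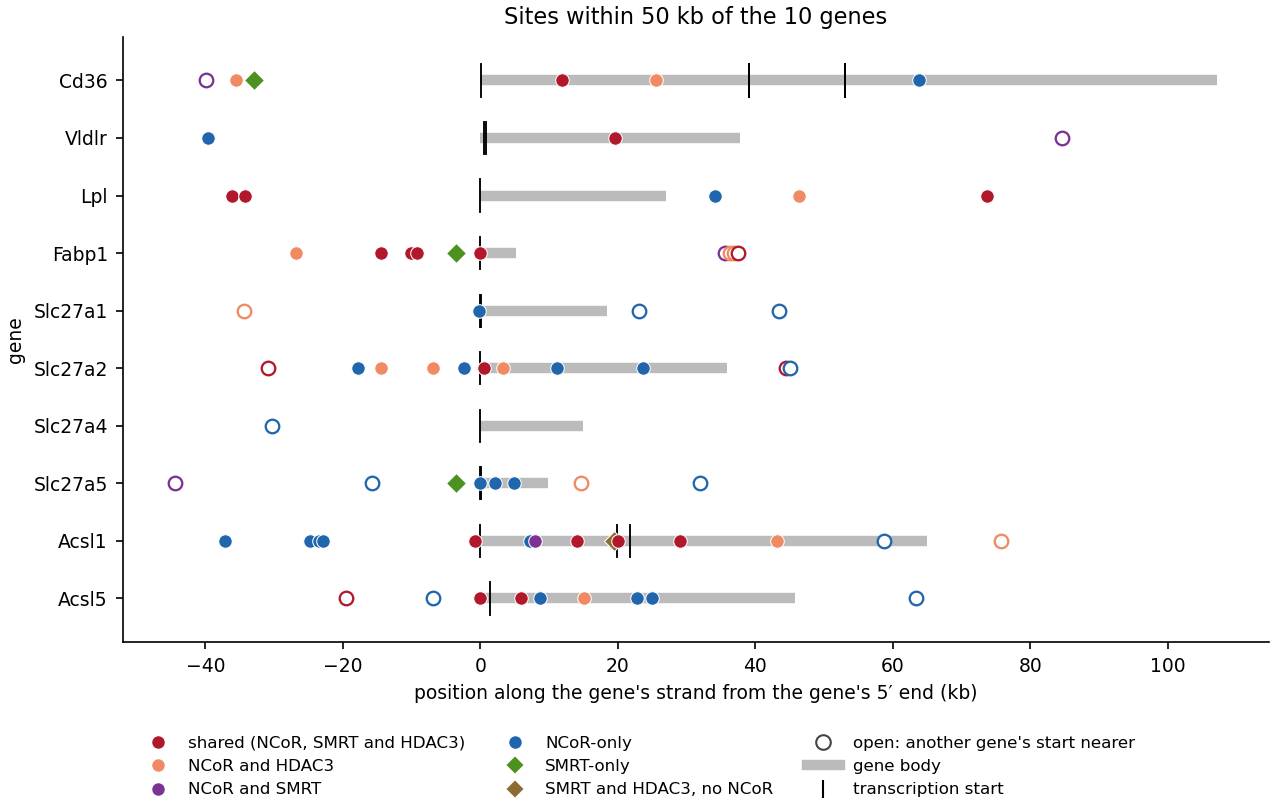
Positions of sites within 50 kb of each gene, in kb from the gene's 5′ end along its own strand, with circles for NCoR peaks by class, diamonds for SMRT or HDAC3 sites without NCoR, and open symbols where the TSS of another gene was nearer. Of the assigned sites (filled symbols), those of Lpl all lie outside its gene body and those of Fabp1 lie upstream or at its TSS. Those of Acsl1 extend from upstream into the gene.

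Fabp1 encodes the fatty acid binding protein of liver, an abundant cytosolic carrier. The gene (ENSMUSG00000054422.7) occupies chr6:71199827-71205023 (plus strand). Of its 5 NCoR peaks, 4 were shared sites, a number reached by 1.52% of protein-coding genes (334), and 0 were NCoR-only. One shared site covered the TSS (71199702 to 71199930, centre at -11 bp). At this site SMRT and HDAC3 lay on opposite sides of the NCoR centre, 78 bp below and 76 bp above it in chromosome coordinates. The other shared sites spanned 5293 bp upstream, at 71185256 to 71185484 (-14457 bp), 71189659 to 71189887 (-10054 bp) and 71190549 to 71190777 (-9164 bp), and each held a C/EBP match. An NCoR and HDAC3 site lay further upstream, at -26801 bp. Between the upstream group and the promoter, a SMRT peak without partners lay at -3543 bp, with the nearest NCoR centre 3532 bp away. On the other side of Fabp1, 4 NCoR peaks spanning 1850 bp lay in an intron of Smyd1, to which they were assigned, and 1 of them was a shared site. Within 10 kb of Fabp1 there were 2 shared sites.

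The Slc27 genes encode fatty acid transport proteins, of which several also activate very-long-chain fatty acids, and Slc27a2 and Slc27a5 are known as the main liver forms. Slc27a2 (ENSMUSG00000027359.16) occupies chr2:126552407-126588243 (plus strand). It was assigned 8 NCoR peaks, a number reached by 2.97% of protein-coding genes. Of these, 1 was a shared site, 3 carried HDAC3 without SMRT and 4 were NCoR-only. The shared site (126552742 to 126552970) was centred 449 bp downstream of the GENCODE TSS, in the 5′ untranslated region. In the RefSeq promoter table the Slc27a2 TSS lies further downstream, at 126553024, and the same site was centred at -168 bp from it. The NCoR and HDAC3 sites lay at -14510, -6898 and +3276 bp. The NCoR-only sites lay at -17831, -2462, +11213 and +23620 bp, and the first of them consisted wholly of repeat-masked sequence (100% of 200 bp) and held a BCL6/STAT match. The upstream sites lay within an intron of the non-coding gene Gm26697.

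Slc27a5 (ENSMUSG00000030382.15), at chr7:12988346-12998192 (minus strand), encodes a protein that also couples bile acids to coenzyme A. It was assigned 3 NCoR peaks, all NCoR-only, with 1 at the promoter (12998102 to 12998330, -24 bp) and the others in introns at +2086 bp (with a FOX match) and +4884 bp. No HDAC3 peak was assigned to it. Its 1 SMRT peak had neither partner and lay at -3610 bp in an intron of Trim28, 3586 bp from the nearest NCoR centre. Slc27a1 (ENSMUSG00000031808.7), at chr8:71568882-71587302 (plus strand), was assigned 1 NCoR peak, which was NCoR-only and lay at the promoter (71568583 to 71568811, -185 bp). No SMRT or HDAC3 peak was assigned to it. Slc27a4 (ENSMUSG00000059316.2), at chr2:29802634-29817522 (plus strand), was assigned no peak of any of the 3 cofactors. The 1 NCoR peak in its window (29772220 to 29772448) was NCoR-only, lay in an intron of Trub2 and was nearest to the TSS of Gm13547. Around Slc27a1, Slc27a4 and Slc27a5, other genes took more of the NCoR peaks in the window than the gene itself, with 3 against 1 (Bst2, Pgls and Colgalt1), 1 against 0 and 4 against 3 (Zfp324, Zfp446, Zbtb45 and Ube2m).

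Acsl1 encodes the main long-chain acyl-CoA synthetase of liver. The gene (ENSMUSG00000018796.13) occupies chr8:46471037-46536051 (plus strand) and has 3 annotated TSSs, at 46471037, 46490966 and 46492832. It was assigned 11 NCoR peaks, the most among the 10 genes and a number reached by 1.19% of protein-coding genes (260), in a window of 165 kb. The windows of the 10 genes ran from 105 kb (Fabp1) to 207 kb (Cd36), and the counts were not scaled to them. The 4 shared sites of Acsl1 spanned 29729 bp. One lay at the first promoter (46470187 to 46470415, -736 bp) and one at the second (46490871 to 46491099, +19 bp). The others lay in introns at 46485035 to 46485263, at -5817 bp from the second TSS, and at 46499916 to 46500144, 7198 bp downstream of the third. The last had the smallest offsets of the 16 shared sites, with the SMRT centre 0 bp and the HDAC3 centre 3 bp from that of NCoR. The site at the first promoter and the one at 46485035 each held C/EBP matches.

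The second promoter of Acsl1 also held the only SMRT and HDAC3 pair without NCoR among the assigned sites. Its SMRT peak (46490377 to 46490589, -483 bp) and its HDAC3 peak (46490373 to 46490585, -487 bp) were 4 bp apart, and the nearest NCoR centre, that of the shared site at the same promoter, was 502 bp from the SMRT centre. Both windows held a BCL6/STAT match, but they overlap almost wholly, so these matches cannot be counted as separate. Across the genome, 96 SMRT peaks (0.901%) paired with HDAC3 without NCoR. Acsl1 was also the gene with the only assigned NCoR and SMRT site without HDAC3, in an intron at +7916 bp from the first TSS. Of its 5 NCoR-only sites, 4 lay upstream, of which 3 spanned 1966 bp from -24860 to -22894 bp and 1 lay at -37185 bp, and the fifth lay in an intron at +7202 bp. An NCoR and HDAC3 site was present in an intron at +21344 bp from the third TSS, while the other distances in these 2 sentences are from the first. Beyond the 50 kb limit, 6 further NCoR peaks lay nearest to Acsl1 between -85036 and -55959 bp, of which 4 were shared sites, so that a limit of 100 kb gave it 8 shared sites.

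Acsl5 encodes a long-chain acyl-CoA synthetase found in liver and intestine. The gene (ENSMUSG00000024981.6) occupies chr19:55251938-55297720 (plus strand). The TSS of its basic transcripts, at 55253369, lies 1431 bp downstream of the annotated 5′ end of the gene. Of its 6 NCoR peaks, 2 were shared. The first (55251734 to 55251962) was centred at -1521 bp from the TSS and covered the annotated 5′ end. The other lay in an intron at 55257674 to 55257902 (+4419 bp). The 3 NCoR-only sites were intronic, at +7202 bp (with the DR1 match), +21357 and +23586 bp, and an NCoR and HDAC3 site lay at +13654 bp. At least 2 shared sites were assigned to 7.58% of protein-coding genes.

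At the 16 shared sites together, the SMRT centre lay a median of 29.5 bp from the NCoR centre (range 0 to 78) and the HDAC3 centre a median of 17 bp (range 3 to 76). Over all 8739 shared sites the medians were 23 and 21 bp. No shared site of the 10 genes therefore came near the limit of 200 bp, and with centres required to lie within 100 bp all 16 were kept.

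**Figure D3:**
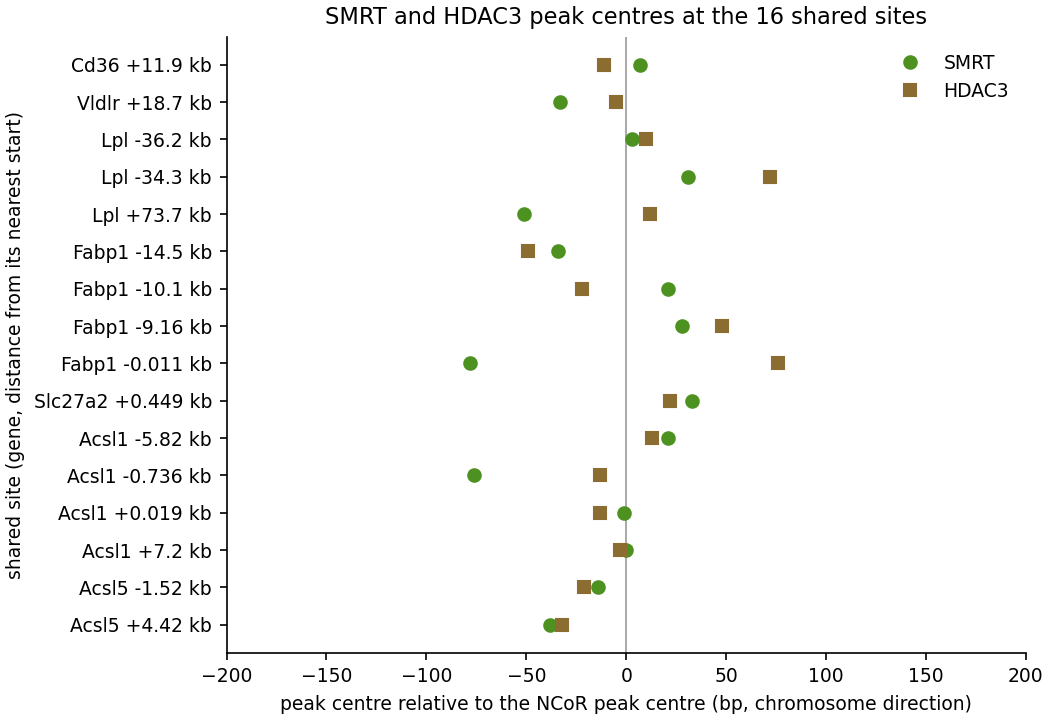
Offsets in bp of the SMRT (circles) and HDAC3 (squares) peak centres from the NCoR centre at each of the 16 shared sites, labelled by gene and distance from the nearest TSS. Offsets reach 78 bp, and at the Fabp1 promoter SMRT and HDAC3 lie on opposite sides.

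The location of the 45 NCoR peaks was next compared with that of all NCoR peaks. Promoters, from 1000 bp upstream to 100 bp downstream of a TSS, held 5 of them (11.1%, 3.71 to 24.1), beside 12.8% of all. Introns held 24 (53.3%, against 52.6%), 15 lay between genes (33.3%, against 30%), 1 lay in an untranslated region and 0 in coding sequence. Of the 5 promoter sites, 3 were shared (1 at Fabp1 and 2 at Acsl1) and 2 were NCoR-only (Slc27a1 and Slc27a5). The median distance to the nearest TSS was 11879 bp for the 45 peaks and 18212 bp for all. For the shared sites it was 8181 bp (range 11 to 73707), against 21971 bp over all shared sites, and for the NCoR-only sites it was 17831 bp, against 16292 bp. The limit of 50 kb kept out more distant peaks of the 10 genes, whereas no limit was set for the genome, so these medians are not on equal terms. Another NCoR peak lay within 10 kb of 32 of the 45 (71.1%, 55.7 to 83.6), compared with 62.1% of all. The GC content of the 200 bp windows had a median of 47%, and 48% over all NCoR peaks.

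Among the SMRT peaks assigned to the 10 genes, 16 of 21 were at shared sites (76.2%, 52.8 to 91.8, against 81.9% of all SMRT peaks). Those with neither partner numbered 3 (14.3%, 3.05 to 36.3), at Cd36, Fabp1 and Slc27a5, compared with 3.35% of all SMRT peaks. Of the 26 HDAC3 peaks, 16 were at shared sites (61.5%, against 60.4%) and 9 had NCoR without SMRT (34.6%, against 36%). None stood alone (0 of 26, upper bound 13.2%), and 2.95% of all HDAC3 peaks did.

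The 8 motifs were searched on both strands in the 200 bp around the NCoR centres, and a match describes the sequence and does not show that a factor was bound. A match to at least 1 was found in 24 of the 45 windows (53.3%, 37.9 to 68.3), beside 49.8% of all NCoR windows. The C/EBP motif (TTNNGCAA), bound by a family of liver transcription factors, was the most frequent, in 13 windows (28.9%, 16.4 to 44.3), compared with 19.1% of all NCoR windows, 8.05% of windows 2 kb to either side and 10.8% of all RefSeq promoters. It was present in 7 of the 16 shared sites (43.8%), at Cd36, Fabp1, Acsl1 and Acsl5, and in 24.7% of all shared sites. The 7 sites are few and include the 3 upstream sites of Fabp1, which span 5293 bp, and the difference was not tested. RefSeq promoter sequences, here and below, were 300 bp long, so their shares are not on equal terms with those of 200 bp windows.

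FOX (TGTTTAC) was found in 6 windows (13.3%, 5.05 to 26.8, against 7.74% of all), HNF4 (CAAAGNNCA) in 7 (15.6%, against 15.2%) and HNF6/CUX2 (TATNGAT) in 5 (11.1%, against 8.41%). ERR (TNAAGGTCA) was found in 1 window, at the shared site of Cd36, and ETS (CCGGAAG) in 0, with an upper bound of 7.87%, against 3.63% and 2.31% of all. In windows 2 kb to either side the shares were 2.91% for FOX, 4.93% for HNF4, 6.55% for HNF6/CUX2, 1.31% for ERR and 0.763% for ETS. In all RefSeq promoters they were 3.65%, 6.36%, 5.27%, 1.28% and 8.86%, respectively.

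The BCL6/STAT motif (TTCNNNGAA), to which the repressor BCL6 and STAT proteins bind, was found in 3 windows (6.67%, 1.4 to 18.3), at Cd36, Lpl and Slc27a2. This compared with 7.07% of all NCoR windows, 6.32% of windows 2 kb away and 8.3% of all promoters. DR1 was found in 2 windows (4.44%, 0.543 to 15.1), against 1.55% of all NCoR windows, 0.161% of windows 2 kb away and 0.237% of promoters. Each DR1 match also counted as an HNF4 match, because the DR1 string contains a form of the HNF4 string. Neither the BCL6/STAT nor the DR1 string was matched in any of the 16 shared sites, while 7.75% and 1.62% of all shared sites held them, respectively. The DR1 string fixes the base between its repeats as A, so looser DR1 elements were not counted. The Fabp1 promoter window printed above, a shared site, holds such a sequence, tgacctatggcct, with another base there. The absence of a match therefore does not show that shared sites lack DR1 elements. With motifs this rare, 16 windows are too few to show a difference.

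**Figure D4:**
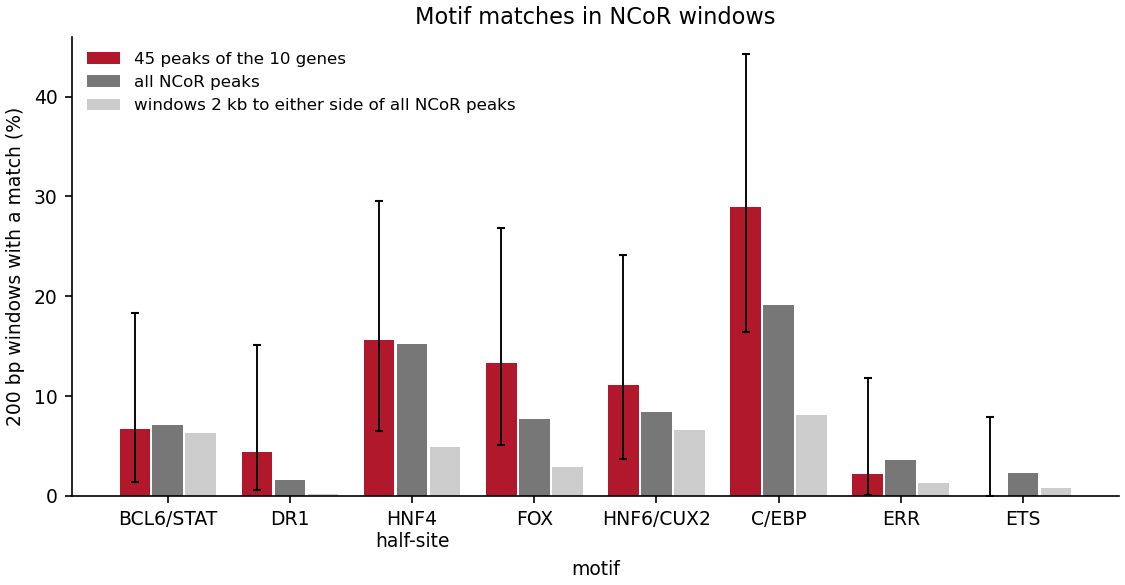
Percent of 200 bp windows with a match to each of 8 motifs, for the 45 NCoR peaks of the 10 genes (red, with exact 95% binomial intervals), all NCoR peaks (dark grey) and windows 2 kb to either side of them (light grey). The interval of the 10 genes includes the share of all NCoR peaks for each motif.

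RefSeq promoter sequences (GRCm38.p6, from 250 bp before to 50 bp after a TSS) were matched for 8 of the 10 genes. C/EBP matches were found in those of Vldlr and Fabp1 and an HNF6/CUX2 match in one of Acsl1, the same match as in the window printed above. The promoters of Cd36, Slc27a1, Slc27a2, Slc27a4 and Acsl5 held none of the 8 motifs. For Cd36 this covers only an internal TSS, at 17835896. The promoter at its most upstream TSS (17888747) was not among these sequences.

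Finally, the 10 genes were set beside 34 other genes for fatty acid uptake and activation, among them further Slc27, Acsl, Acsm and Fabp genes and regulators of lipases. These held 116 NCoR peaks, of which 37 were shared (31.9%) and 52 NCoR-only (44.8%), and 16 of the 34 genes had a shared site (47.1%). The median number of NCoR peaks per gene was 2.5, against 4.5 for the 10 genes. The most shared sites were found at Scp2 (6 of 13 NCoR peaks), which encodes a sterol and fatty acid carrier, and at Lipc (5 of 14), which encodes hepatic lipase. Apoa5, an apolipoprotein that promotes triglyceride hydrolysis, had 4 of 4, while Angptl8, an inhibitor of lipoprotein lipase, and Dbi, the acyl-CoA binding protein, had 3 of 4 each. No peak of any of the 3 cofactors was assigned to Slc27a3, Slc27a6, Acsl6 or Acsbg2.

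Genes for mitochondrial fatty acid oxidation (18 genes) held 60 NCoR peaks, of which 29 were shared (48.3%), and 13 of them had a shared site (72.2%). Genes for de novo lipogenesis (14 genes) held 85, of which 30 were shared (35.3%), and 13 had a shared site (92.9%). For all protein-coding genes together, with the same limit of 50 kb, 24.2% of 29463 NCoR peaks were shared. The share at the 10 genes (35.6%) was thus close to that at the lipogenic genes, and its interval of 21.9 to 51.2 includes the shares of all of these lists.

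**Figure D5:**
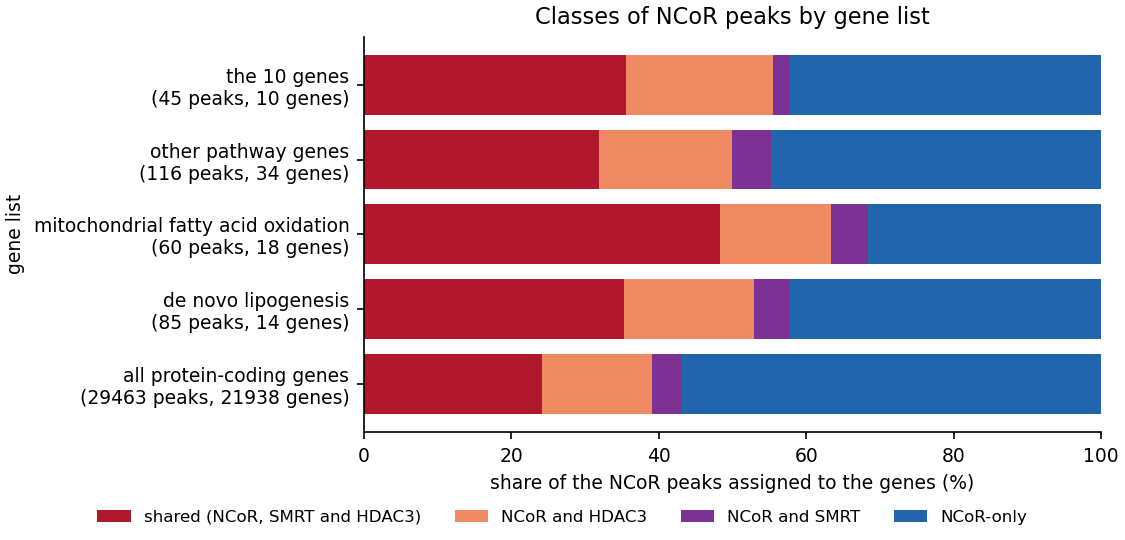
Classes of NCoR peaks, as percent of the peaks assigned within 50 kb, for the 10 genes, 34 other genes of the pathway, mitochondrial fatty acid oxidation genes, de novo lipogenesis genes and all protein-coding genes. Shared sites make up 35.6%, 31.9%, 48.3%, 35.3% and 24.2%, respectively.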

How the data were processed

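Peaks of NCoR, SMRT and HDAC3 from ChIP-seq of fed Bcl6 fl/fl livers were analysed. The study states biological triplicates, and 9 of the 40 samples stand behind the 3 lists. The other 31 samples were not used here. The study used crosslinking with disuccinimidyl glutarate and formaldehyde, with its own SMRT and NCoR antibodies and a commercial HDAC3 antibody. The authors aligned single-end reads to mm10 with Bowtie, kept uniquely mapped reads, called peaks on pooled replicates against input with HOMER and kept those past thresholds of DESeq2 on the individual libraries. The deposited lists give peak positions only, in intervals of fixed length (228 bp for NCoR, 212 bp for SMRT and HDAC3, end minus start). Depth is not given, so the length of a list may depend on reads and on the antibody as well as on binding.

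Positions were placed on GRCm38 with the GENCODE vM21 basic annotation, and all peaks lay within its chromosome lengths. Genes of any type were used for location (promoter, intron, exon) and protein-coding genes for assignment. Classes used centres within 200 bp. The alternatives were 100 and 400 bp, windows of 10 and 100 kb, other sets of TSSs, every peak in the window, promoters within 5000 bp on either side, 100 bp motif windows and masked repeats. Exact (Clopper-Pearson) intervals at 95% were computed with SciPy 1.17.1, NumPy 2.4.6 and pysam 0.24.0 in Python 3.11.15. The scripts were tested on simulated data. DR1 was searched as a 13-letter consensus.

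The genes, gene lists and motifs were chosen with earlier results of these data known. All 10 genes were described. For those with the most shared sites each shared site was placed, and other sites were described as well. Of the other pathway genes, the 5 with the most shared sites and those with no peak were named. Neighbours were named where they took more peaks than the gene, and Smyd1, Trim28, Trub2, AC118724.1, Gm26697, and the repeat content at Slc27a2 were added after the values were seen.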

Additional observations from a re-analysis of the deposited data

How the results depend on the processing

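The main results were recomputed in 49 cases, of which 44 stayed within 1.5 times a count or within the counting interval of a share, and 5 moved. With the TSSs of genes of any type, NCoR-only sites fell from 19 to 11. With promoters within 5000 bp, the promoter share was 35.6%. BCL6/STAT matches numbered 1 in 100 bp windows and 5 with every peak in the window, and DR1 matches then numbered 4. Why these values moved was not tested. Shared sites numbered 15 with the TSSs of genes of any type, beside 16 in the main setting, and made up 46.9% of NCoR peaks. Over the alternatives, NCoR peaks of the 10 genes ran from 30 to 67, shared sites from 11 to 20, their share of NCoR peaks from 29.9% to 46.9%, and the genes with a shared site from 6 to 7. Of 70 recomputed values for single genes, 66 stayed and 4 moved: Lpl (0) and Fabp1 (2) within 10 kb, Slc27a2 (3) with every peak in the window, and Acsl1 (8) within 100 kb.

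A threshold on peak score and leaving out a replicate could not be run, since the lists carry neither scores nor values per library. No paired analysis was possible because replicates were merged within each list before deposit. The unknown depth limits the reading of NCoR-only sites: a partner that was present but not called cannot be told apart from an absent one.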
